A study of Sus scrofa with 4 samples.

Results

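Interferon receptors and interferon-stimulated genes were examined in lung cells of knock-in pigs with the LGR5-H2B-GFP allele, a reporter that places a histone fused to green fluorescent protein under the control of LGR5. The set was a list of 42 gene symbols, and 40 of them had a row among the 29263 genes of each count table. IFIT3 and XAF1 had no row under either name and were not analysed here. DDX58, GBP1 and IFNAR2 were listed by an Ensembl identifier and matched through a table of pig gene names, which gives DDX58 its current symbol, RIGI. All 40 passed the filter on low counts, and the lowest count of any of them in any library was 11.

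After dissociation of the lung, cells with a strong reporter signal (GFP-HI) were sorted away from cells lacking it (GFP-NEG), and 2 libraries were made of either kind. All 4 libraries carry the same knock-in, and no treatment is named. The titles give each library a biological replicate number, 1 or 2, and the headings of the authors' deposited comparison table number the pigs 1 and 2. The sorting protocol covers adult and fetal lung together. Only the name of the deposited comparison table, which speaks of adult pig, gives a stage, and the animals' sex and health are not stated. A histone-bound reporter can outlast the transcription that made it, so the bright fraction marks cells that transcribe or recently transcribed LGR5.

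Interferons are secreted proteins that cells release on sensing viral nucleic acid. Type I interferons bind a receptor of the chains IFNAR1 and IFNAR2, and interferon gamma binds IFNGR1 and IFNGR2. The type I receptor activates STAT2, which acts in a complex with IRF9 to switch on interferon-stimulated genes. These genes encode sensors of foreign RNA, enzymes and binding proteins that block viral replication, and factors such as IRF7 that raise interferon production. In lung, leukocytes, endothelium, epithelium and fibroblasts can all respond.

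The GFP-HI libraries held 24200550 and 24689986 counts and the GFP-NEG libraries 6292253 and 7045652, so depth and fraction cannot be told apart. LGR5 itself was at 146 and 152 CPM (counts scaled to a fixed library total, and further between libraries by TMM) in GFP-HI and at 1.55 and 0.767 CPM in GFP-NEG. The fractions differed in cell type markers. Of 8 fibroblast markers, 5 were higher in GFP-HI, with a summed level of 81327 and 70917 CPM against 25001 and 9015 CPM. All 7 endothelial markers with a row were lower, with sums of 183 and 182 CPM against 1337 and 563 CPM. Of 8 epithelial markers 2 were lower, both tested erythroid markers were lower, and of 2 plasmacytoid dendritic cell markers with a row 1 was higher and 1 lower. Of 16 leukocyte markers, 14 were lower in GFP-HI, none was at 0 in any library, and their sum was 574 and 1016 CPM in GFP-HI against 5589 and 6944 CPM in GFP-NEG.

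The replicates stood apart in these genes before any comparison of fractions. The 36 stimulated genes and transcription factors together reached 14006 CPM in GFP-HI replicate 1 and 1505 CPM in GFP-HI replicate 2. In GFP-NEG their sum was 22636 CPM in replicate 1 and 5422 CPM in replicate 2. Of all counts they took 1.28% (replicate 1) and 0.123% (replicate 2) in the GFP-HI libraries, while the GFP-NEG libraries gave them 2.32% and 0.702%. Replicate 1 was thus the higher in both fractions, by 9.31-fold in GFP-HI and 4.17-fold in GFP-NEG, and GFP-HI replicate 1 exceeded GFP-NEG replicate 2. The sum of the 4 receptors did not share this order, at 345 and 382 CPM in GFP-HI and 466 and 288 CPM in GFP-NEG. Of the single receptors, IFNAR1 and IFNAR2 were higher in replicate 1 in both fractions, and IFNGR1 and IFNGR2 were not.

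**Figure D1:**
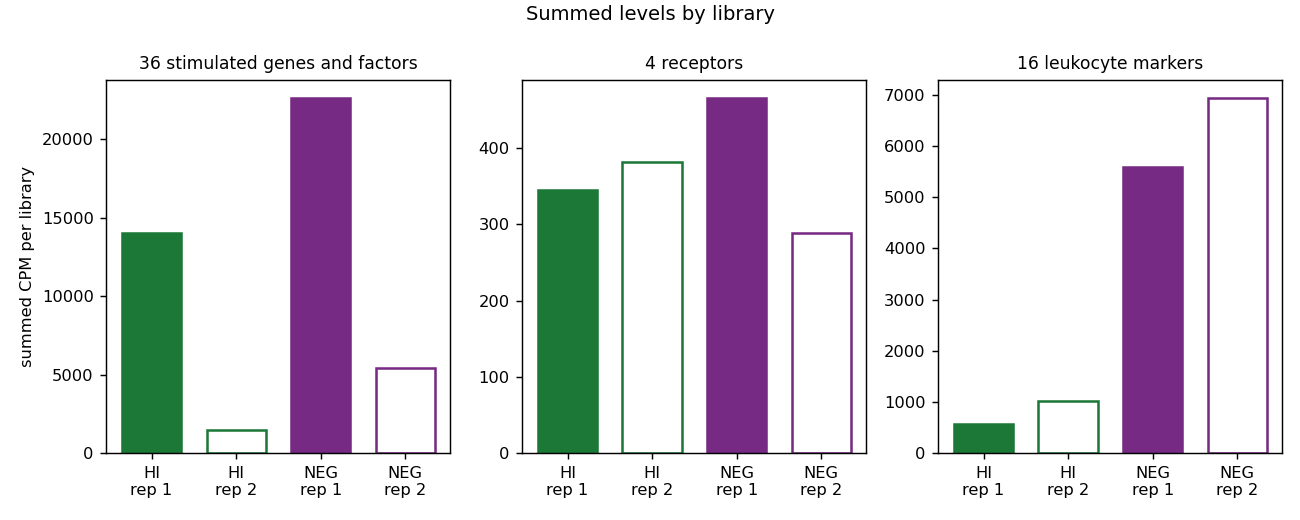
Bars show the summed CPM of 36 stimulated genes and transcription factors, of the 4 receptors and of 16 leukocyte markers in each library (HI, GFP-HI; NEG, GFP-NEG; filled, replicate 1; open, replicate 2). The stimulated genes are high in both replicate 1 libraries, at 14006 and 22636 CPM, whereas the leukocyte markers are lower in replicate 1 than in replicate 2 of each fraction.

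Gene by gene, 36 of the 40 were higher in replicate 1 in both fractions, against 23.9% of the 19682 genes tested. At least 4-fold higher in replicate 1 in both fractions, on the log2(CPM + 0.5) scale, were 14 of the 40 (12 with CPM on library totals alone), against 0.366% of the tested genes. Within GFP-HI alone 20 reached 4-fold, against 0.935%, and within GFP-NEG alone 17, against 3.53%. At least 2-fold higher in replicate 1 in both fractions were 30, against 2.42%. None of the 40 was 4-fold higher in replicate 2 in both fractions, against 0.0508% of tested genes. The median difference, replicate 1 minus replicate 2, was 2.15 on the log2 scale in GFP-HI and 1.52 in GFP-NEG, where all tested genes had medians of 0.00 and -0.11. The replicate term of the edgeR fit with both fraction and replicate, added after the values had been seen, tests the difference shared by both fractions. It called 17 of the 40 higher in replicate 1, against 0.533% of tested genes, and none higher in replicate 2, against 0.0762%. DESeq2 called 25 higher in replicate 1 and none higher in replicate 2, against 149 and 16 of all the genes it tested. The number of genes tested for this term was not counted, so no share is given. It left IFNGR2, OASL, CMPK2 and GBP2 untested. Each replicate is taken to be a single pig, so its libraries are fractions of the same animal. The p-values of the replicate term thus measure how far the fractions share a difference, not the spread between animals. The folds within a single fraction have no replicate and were not tested.

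IFI6, a small interferon-induced membrane protein, showed the widest gap between the replicates. GFP-HI had it at 3178 and 36.0 CPM, GFP-NEG at 2708 and 145 CPM, a fold of 88.2 in GFP-HI and 18.7 in GFP-NEG (replicate term 5.34 on the log2 scale, SE 0.92, edgeR adjusted p 1.4e-04). BST2, a membrane tether that holds budding virus at the cell surface, was 15.8-fold and 12.7-fold higher in replicate 1. For RSAD2 (viperin), an enzyme that makes an antiviral nucleotide, the folds were 22.0 and 9.05, and for MX1, a GTPase that blocks incoming virus, 16.7 and 8.82. The other 10 were DDX58, DHX58, EIF2AK2, OAS1, OAS2, MX2, CMPK2, IFI44, ISG15 and USP18. At this fold in both fractions, no receptor, transcription factor, guanylate-binding protein or member of the PARP9 group was among them.

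Values that move with the replicate are these. The summed leukocyte markers were lower in replicate 1 in both fractions (574 against 1016 CPM and 5589 against 6944 CPM). Of the 16, 10 were lower in replicate 1 in both fractions and 5 differed in direction between fractions. CD14, a monocyte receptor, was higher in replicate 1 in both, at 14.0 against 6.59 CPM in GFP-HI and 223 against 103 CPM in GFP-NEG. In GFP-NEG the sums of endothelial (1337 against 563 CPM), epithelial (789 against 194 CPM) and fibroblast markers (25001 against 9015 CPM) were also higher in replicate 1. The Y-linked gene EIF1AY was at 28.8 and 33.1 CPM in the replicate 1 libraries and had 0 counts in both replicate 2 libraries, chosen after its values were seen. The part of these in the replicate gap was not tested, and animal, sorting day and library preparation cannot be told apart. In bulk RNA, fewer responding cells and less RNA per cell cannot be told apart either.

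**Figure D2:**
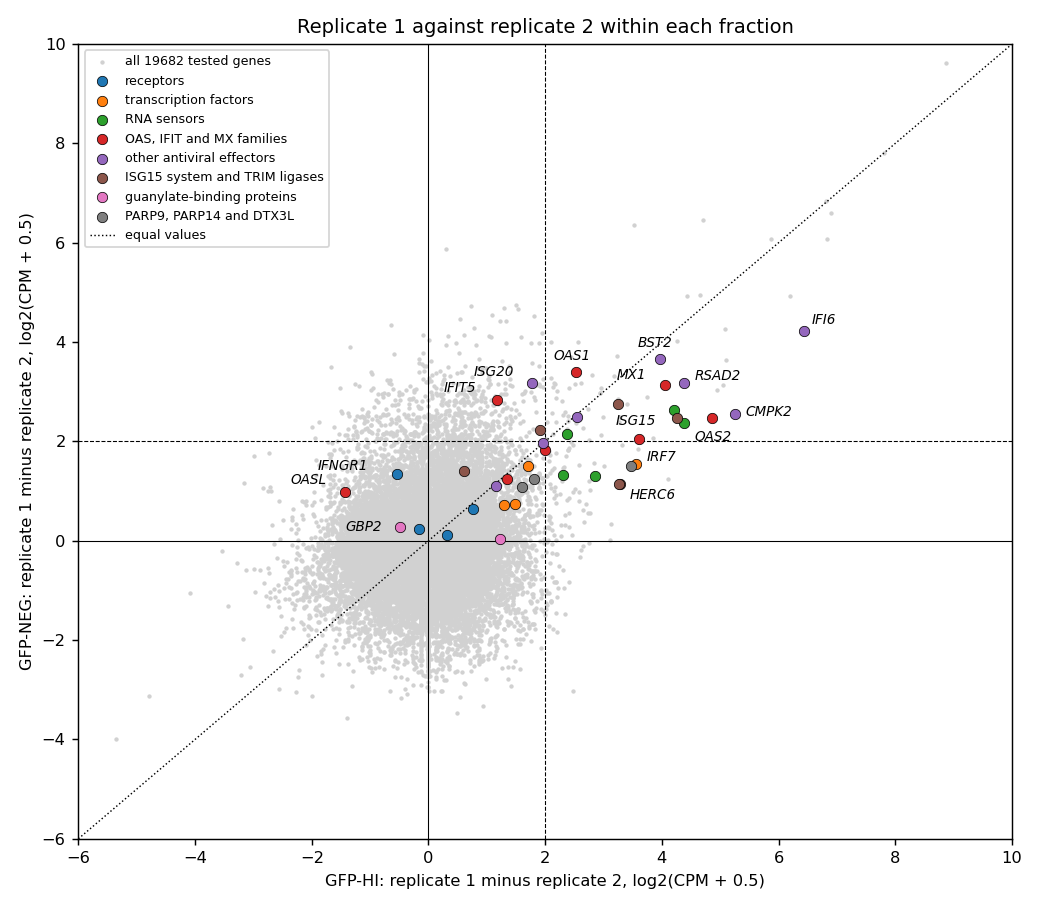
Each point is a gene, placed by its difference between replicate 1 and replicate 2 in GFP-HI (x axis) and GFP-NEG (y axis), both in log2(CPM + 0.5). Colours give the role of the 40 interferon genes, grey points are all 19682 tested genes and dashed lines mark 4-fold. Beyond both dashed lines lie 14 interferon genes, with IFI6 farthest out, and the 4 receptors lie inside both lines.

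The design compares GFP-HI with GFP-NEG. Here 27 of the 40 interferon genes were lower in GFP-HI within both replicates. Another 11 differed in sign between the replicates, and IFNGR2 and IRF9 were higher within both. All tested genes leaned lower too, with median differences of -0.18 in replicate 1 and -0.36 in replicate 2. Their shares by sign were not counted. By the quasi-likelihood test of edgeR, with p-values adjusted over all tested genes and a threshold of 0.05, 12 of the 40 were lower in GFP-HI, or 30.0%. Among all tested genes 27.6% were lower, so the share of lower interferon genes was near the background. None of the 40 was higher, against 8.35% of all tested genes. That count was also 0 at an unadjusted p under 0.05 in edgeR and in DESeq2. DESeq2 called 7 lower, against 24.9% of the genes it tested, and none higher, against 5.60%. With library size as the only scaling, edgeR called 14 lower, against 29.1%, and none higher, against 4.51%.

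The median fitted log2 fold change was -0.53 for the 40 genes and -0.25 for all tested genes. With library size as the only scaling these were -0.80 and -0.68. The order turned with no filter on low counts (-0.49 and -1.21) and under DESeq2 (-0.53 and -1.30). Both fits take in genes that the main filter removes, and the part of these in the turn was not tested. At least 2-fold lower within both replicates were 11 genes, against 30.0% of tested genes, and none was 2-fold higher within both, against 7.47%. The 11 were the called genes other than HERC5 and GBP1, plus ISG15.

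The replicate number as a block pairs the libraries of a pig and takes the replicate gap out of the error. With it, 14 of the 40 were lower, against 24.4% of tested genes, and none was higher, against 8.67%. These 14 were the same 12 genes and IFIH1 and PARP14. DESeq2 with the block called 15 lower, against 16.3%, and none higher, against 6.26%. The blocked median of the 40 in edgeR was -1.17, against -0.26 for all tested genes.

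The gap between fractions was wider in replicate 2. The median of GFP-HI minus GFP-NEG was -0.53 in replicate 1 and -1.74 in replicate 2 on the log2(CPM + 0.5) scale, against -0.18 and -0.36 for all tested genes. For 31 of the 40 the difference was more negative in replicate 2, against 53.8% of tested genes. With 1 pair for each animal, this was not tested. Leaving out a library that carries the replicate gap moved the count of lower genes. It was 20 without GFP-HI replicate 1, against 13.2% of the genes tested in that fit, and 1 without GFP-HI replicate 2, against 12.0%. Without GFP-NEG replicate 1 it was 2, against 23.3%, and 5 were higher, against 7.62%. Without GFP-NEG replicate 2 it was 8, against 8.98%. Each such fit sets 1 library of a fraction against 2 of the other and assumes that the lone library varies like the others. IFIT2 alone was called lower in all of these fits and in all fits with 4 libraries.

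**Figure D3:**
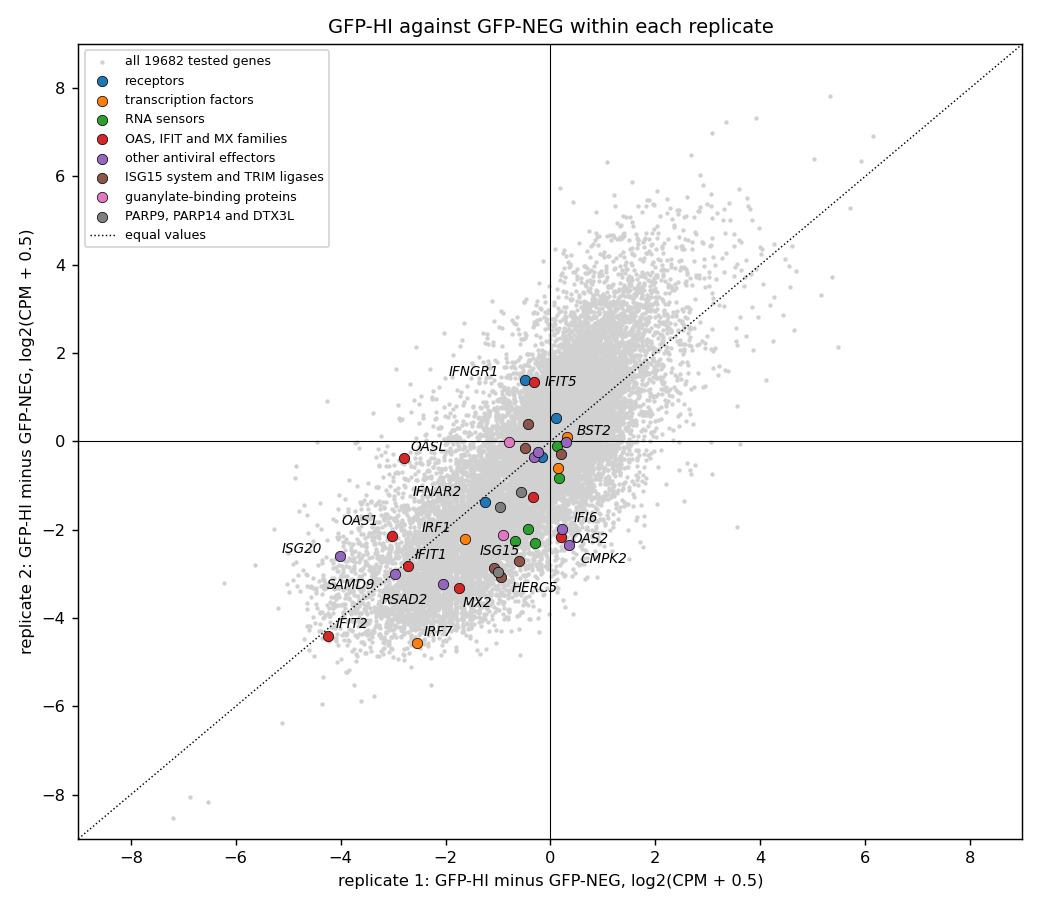
Each point is a gene, placed by GFP-HI minus GFP-NEG within replicate 1 (x axis) and within replicate 2 (y axis), both in log2(CPM + 0.5), with the 40 interferon genes coloured by role and all 19682 tested genes in grey. IFIT2, SAMD9 and IFIT1 lie near the dotted line of equal values at the lower left, BST2 lies near the origin, and IFI6, OAS2 and CMPK2 lie near 0 in replicate 1 but about 2 log2 units below 0 in replicate 2.

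Of the receptors, IFNAR2 was lower in GFP-HI and the other 3 did not pass the test. IFNAR2, the chain that binds type I interferon most tightly, was at 35.2 and 20.6 CPM in GFP-HI and at 84.6 and 54.0 CPM in GFP-NEG. The fractions did not overlap, and the log2 fold change was -1.31 (SE 0.52, adjusted p 0.035). IFNAR1, its partner, was at 113 and 90.5 CPM in GFP-HI and 126 and 116 CPM in GFP-NEG and did not pass the test (log2 fold change -0.25, SE 0.56, adjusted p 0.77).

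IFNGR1, the ligand-binding chain of the interferon gamma receptor, was at 152 and 221 CPM in GFP-HI and 214 and 83.5 CPM in GFP-NEG. The fractions overlapped, with the sign of the difference opposite in the 2 replicates. IFNGR2, the signalling chain, was at 44.9 and 50.4 CPM in GFP-HI and 41.5 and 35.0 CPM in GFP-NEG. Its fractions were apart by a small margin, and neither chain passed the test (adjusted p 0.72 and 0.67). Transcripts of all 4 chains were thus detected in both GFP-HI libraries. These libraries also held transcripts of leukocyte markers such as PTPRC, at 45.9 and 121 CPM. Which cells of the fraction carried the receptor transcripts was not tested. The IFNAR2 call was lost under DESeq2 without and with the block (adjusted p 0.060 and 0.059), with no filter on low counts (0.065) and with any 1 library left out (0.09 to 0.37).

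Among the transcription factors, IRF7 and IRF1 were lower in GFP-HI, and STAT2 and IRF9 were near equal. IRF7, the factor that amplifies type I interferon production, was at 202 and 16.8 CPM in GFP-HI and at 1185 and 408 CPM in GFP-NEG. GFP-HI was the lower fraction in each animal, by 5.85-fold in replicate 1 and 24.3-fold in replicate 2, and the groups did not overlap (log2 fold change -2.86, SE 0.77, adjusted p 0.001). IRF1, a factor induced by interferon gamma, was at 154 and 62.3 CPM in GFP-HI and 479 and 292 CPM in GFP-NEG, again without overlap (log2 fold change -1.83, SE 0.66, adjusted p 0.018).

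STAT2 and IRF9 form the complex that carries the type I signal to DNA. STAT2 was at 329 and 117 CPM in GFP-HI and 298 and 179 CPM in GFP-NEG. IRF9 was at 368 and 112 CPM in GFP-HI and 294 and 104 CPM in GFP-NEG. For both genes the replicate 1 libraries were the high ones and the fractions overlapped (adjusted p 0.93 and 0.78). Within a replicate, IRF9 differed between fractions by 1.25-fold and 1.08-fold only.

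The RNA sensors did not pass the unblocked test. DDX58 (RIG-I) and IFIH1 (MDA5) recognise viral RNA, DHX58 (LGP2) modulates them, EIF2AK2 (PKR) halts translation on double-stranded RNA, and ADAR edits such RNA. EIF2AK2 was at 633 and 122 CPM in GFP-HI and 584 and 131 CPM in GFP-NEG, nearly the same in the 2 fractions of each animal. ADAR differed between fractions by less than 2-fold in each animal (log2 fold change -0.06, SE 0.52). DDX58 was at 308 and 16.3 CPM against 413 and 65.9 CPM, and DHX58 at 289 and 13.5 CPM against 357 and 68.4 CPM. These 2 sensors shared a pattern of small differences in replicate 1 (1.34-fold and 1.24-fold lower in GFP-HI) and larger ones in replicate 2 (4.05-fold and 5.07-fold lower). IFIH1 was at 112 and 14.9 CPM in GFP-HI and 179 and 72.8 CPM in GFP-NEG (log2 fold change -0.99, SE 0.55, adjusted p 0.15), and it was called lower with the replicate block (-1.48, SE 0.58, adjusted p 0.042).

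**Figure D4:**
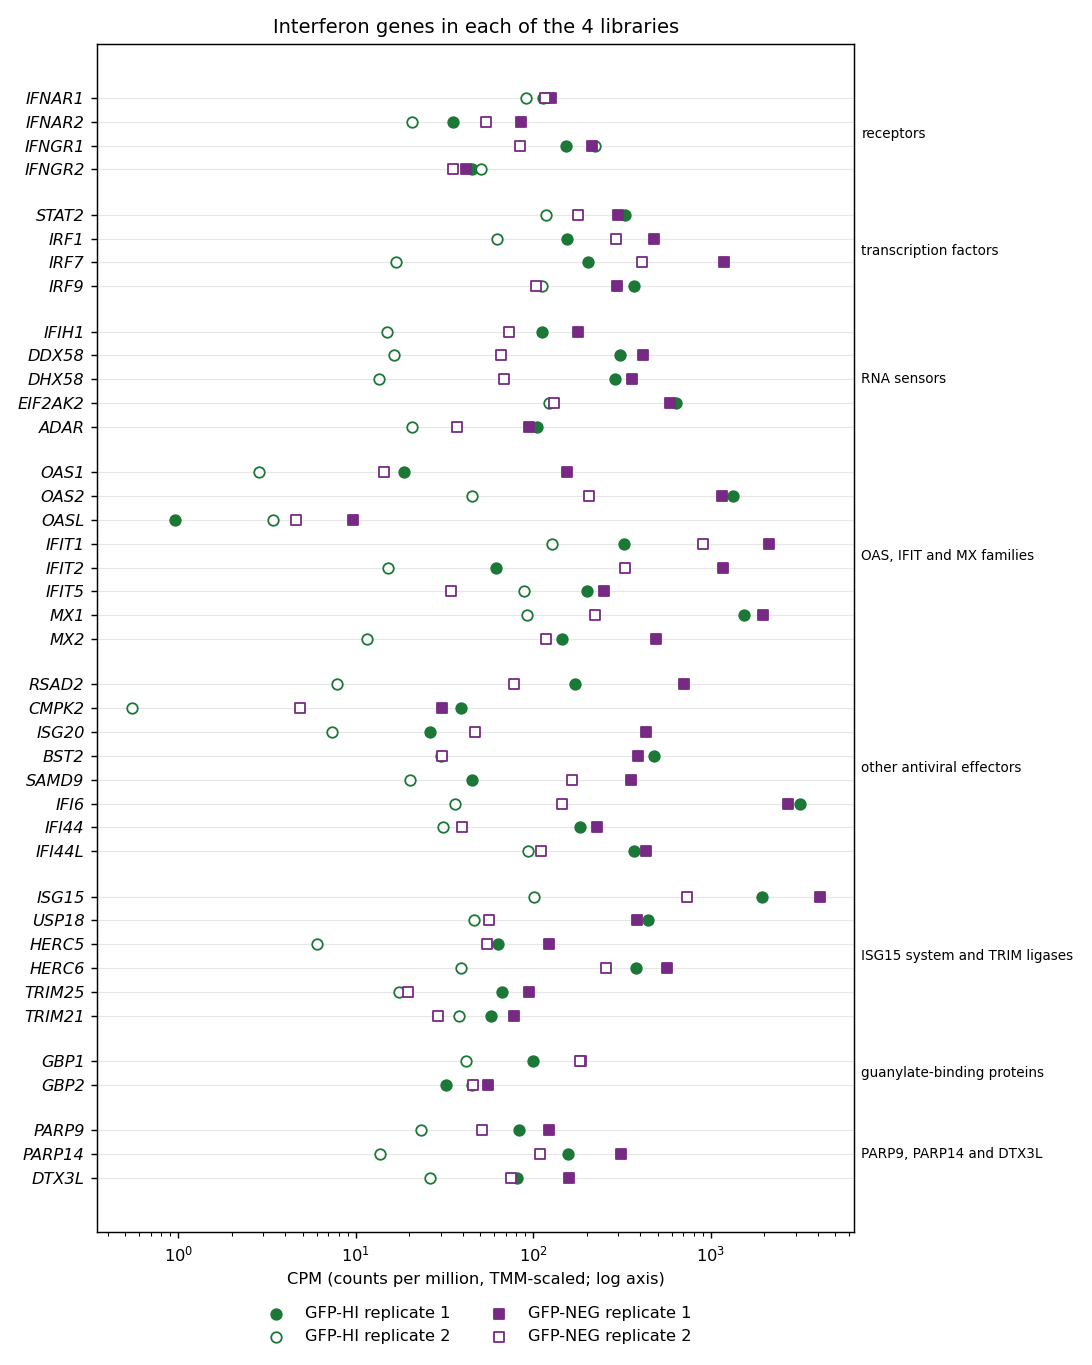
CPM of each of the 40 interferon genes on a log axis in the 4 libraries (circles, GFP-HI; squares, GFP-NEG; filled, replicate 1; open, replicate 2), ordered by role. Filled symbols lie to the right of open symbols of the same shape for most stimulated genes, and for IFIT2, IRF7 and SAMD9 both circles lie to the left of both squares.

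The OAS, IFIT and MX families contain close relatives of which some passed the test and others did not. The IFIT proteins bind viral RNA that lacks the host's cap marks. IFIT2 was at 61.3 and 15.1 CPM in GFP-HI and at 1171 and 329 CPM in GFP-NEG. Every GFP-NEG library was far above every GFP-HI library, with GFP-HI lower by 19.1-fold in replicate 1 and 21.8-fold in replicate 2 (log2 fold change -4.29, SE 0.80, adjusted p 3.1e-06). IFIT1 was at 322 and 127 CPM in GFP-HI and at 2124 and 899.6 CPM in GFP-NEG, lower by 6.59-fold and 7.11-fold (log2 fold change -2.75, SE 0.88, adjusted p 0.0066). IFIT5 was at 201 and 88.2 CPM in GFP-HI and 249 and 34.4 CPM in GFP-NEG, so its fractions overlapped and its log2 fold change was 0.03 (SE 0.58, adjusted p 0.98). IFIT1 and IFIT2 thus differed between fractions by nearly the same fold in the 2 animals although their levels differed between the animals.

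The OAS enzymes make a short messenger that activates RNase L. OAS1 was at 18.6 and 2.83 CPM in GFP-HI and 154 and 14.3 CPM in GFP-NEG. It was lower in GFP-HI in each animal, by 8.30-fold and 5.04-fold, although GFP-HI replicate 1 was above GFP-NEG replicate 2 (log2 fold change -2.97, SE 0.55, adjusted p 2.8e-06). OAS2, its neighbour in the genome, was at 1326 and 45.3 CPM in GFP-HI and 1151 and 205 CPM in GFP-NEG (log2 fold change 0.02, SE 0.78, adjusted p 0.99). OASL, a relative without the enzymatic activity, was scarce, at 0.951 and 3.42 CPM in GFP-HI and 9.63 and 4.60 CPM in GFP-NEG (adjusted p 0.15).

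MX2 was at 145 and 11.5 CPM in GFP-HI and 491 and 118 CPM in GFP-NEG, lower within each animal by 3.38-fold and 10.3-fold, although GFP-HI replicate 1 was above GFP-NEG replicate 2 (log2 fold change -1.96, SE 0.63, adjusted p 0.0076). MX1 was at 1544 and 92.3 CPM in GFP-HI and 1959.9 and 222 CPM in GFP-NEG and did not pass the test (log2 fold change -0.41, SE 0.84, adjusted p 0.75). The difference between OAS1 and OAS2, or between MX2 and MX1, was not itself tested. OAS1 and MX2 lost their calls under DESeq2 without the block, with adjusted p-values of 0.17 and 0.36, and held them with it (5.7e-05 and 2.9e-05).

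Of the other antiviral effectors, ISG20, SAMD9 and RSAD2 were lower in GFP-HI. ISG20, an exonuclease that degrades RNA, was at 26.0 and 7.29 CPM in GFP-HI and 428 and 46.7 CPM in GFP-NEG, with no overlap (log2 fold change -3.83, SE 0.64, adjusted p 1.5e-07). SAMD9, a restriction factor against poxviruses, was at 45.2 and 20.1 CPM in GFP-HI and 356 and 165 CPM in GFP-NEG. It was lower by 7.88-fold and 8.22-fold, a steady gap in the 2 animals (log2 fold change -3.0, SE 0.63, adjusted p 4.1e-05). RSAD2 was at 171 and 7.78 CPM in GFP-HI and 703 and 77.7 CPM in GFP-NEG. It was lower within each animal, by 4.11-fold and 9.99-fold, but GFP-HI replicate 1 was above GFP-NEG replicate 2 (log2 fold change -2.13, SE 0.66, adjusted p 0.0054). RSAD2 lost its call under DESeq2 without the block (adjusted p 0.42) and with a filter at 1 CPM in 2 libraries (0.052), and without GFP-NEG replicate 1 its log2 fold change was 0.25.

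The remaining effectors did not pass the test, and 3 of them were at close levels in the 2 fractions of each animal. BST2 was at 477 and 30.2 CPM in GFP-HI and 386 and 30.4 CPM in GFP-NEG. IFI44L was at 369.6 and 93.6 CPM against 432 and 109.8 CPM, and IFI44 at 183 and 30.8 CPM against 227 and 39.8 CPM. Within an animal the fractions differed by at most 1.29-fold for these 3 genes, while the animals differed by 3.93-fold to 15.8-fold. IFI6, given above, and CMPK2, a mitochondrial nucleotide kinase encoded next to RSAD2, differed in sign between animals. CMPK2 was at 39.3 and 0.545 CPM in GFP-HI, the latter from 11 counts, and at 30.6 and 4.82 CPM in GFP-NEG.

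The ISG15 system attaches a ubiquitin-like protein to other proteins. ISG15 itself was at 1939 and 101 CPM in GFP-HI and 4089 and 736 CPM in GFP-NEG. It was lower in GFP-HI by 2.11-fold in replicate 1 and 7.31-fold in replicate 2, and replicate 1 was the higher by 19.3-fold in GFP-HI and 5.55-fold in GFP-NEG. It did not pass the test (log2 fold change -1.24, SE 0.97, adjusted p 0.34). With the block its adjusted p was 0.051 in edgeR, and DESeq2 with the block called it lower (-1.98, adjusted p 0.0014). HERC5, the main ligase for ISG15 in humans, was lower, at 63.4 and 6.05 CPM in GFP-HI and 122 and 54.8 CPM in GFP-NEG (log2 fold change -1.35, SE 0.53, adjusted p 0.032). GFP-HI replicate 1 was above GFP-NEG replicate 2. That call was lost under DESeq2 without the block (0.20), with GFP-HI thinned to the depth of GFP-NEG (0.069), with no filter on low counts (0.059), with the filter at 1 CPM (0.096) and in all fits with 1 library left out except that without GFP-HI replicate 1.

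HERC6, its neighbour, was at 377 and 38.9 CPM in GFP-HI and 568 and 257 CPM in GFP-NEG (adjusted p 0.26), and DESeq2 with the block called it lower (-1.66, adjusted p 0.017). USP18, which removes ISG15 and damps the type I receptor, was at 442 and 46.2 CPM against 383 and 56.3 CPM and was nearly equal in the 2 fractions of each animal (adjusted p 0.88). The ubiquitin ligases TRIM25, which acts on RIG-I, and TRIM21, an antibody receptor inside cells, also did not pass the test. Their log2 fold changes were -0.43 and -0.15, with adjusted p-values of 0.55 and 0.85.

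GBP1, a guanylate-binding GTPase typical of the interferon gamma response, was at 98.8 and 41.9 CPM in GFP-HI and 186 and 183 CPM in GFP-NEG. It was lower without overlap, close to the threshold (log2 fold change -1.39, SE 0.58, adjusted p 0.047), and the call was lost with thinned counts and with the filter at 1 CPM (0.051 in each), with no filter (0.08) and with any 1 library left out. GBP2 was at 32.0 and 45.2 CPM in GFP-HI and 55.1 and 45.5 CPM in GFP-NEG, its nearest values almost touching, and did not pass the test (adjusted p 0.60). The complex of PARP9 and DTX3L and the related PARP14 modify STAT signalling. PARP14 was at 157 and 13.7 CPM in GFP-HI and 313 and 109 CPM in GFP-NEG (log2 fold change -1.31, SE 0.59, adjusted p 0.073), and -1.99 with the block (SE 0.64, adjusted p 0.012). DTX3L and PARP9 had log2 fold changes of -1.12 and -0.73 (adjusted p 0.095 and 0.30).

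**Figure D5:**
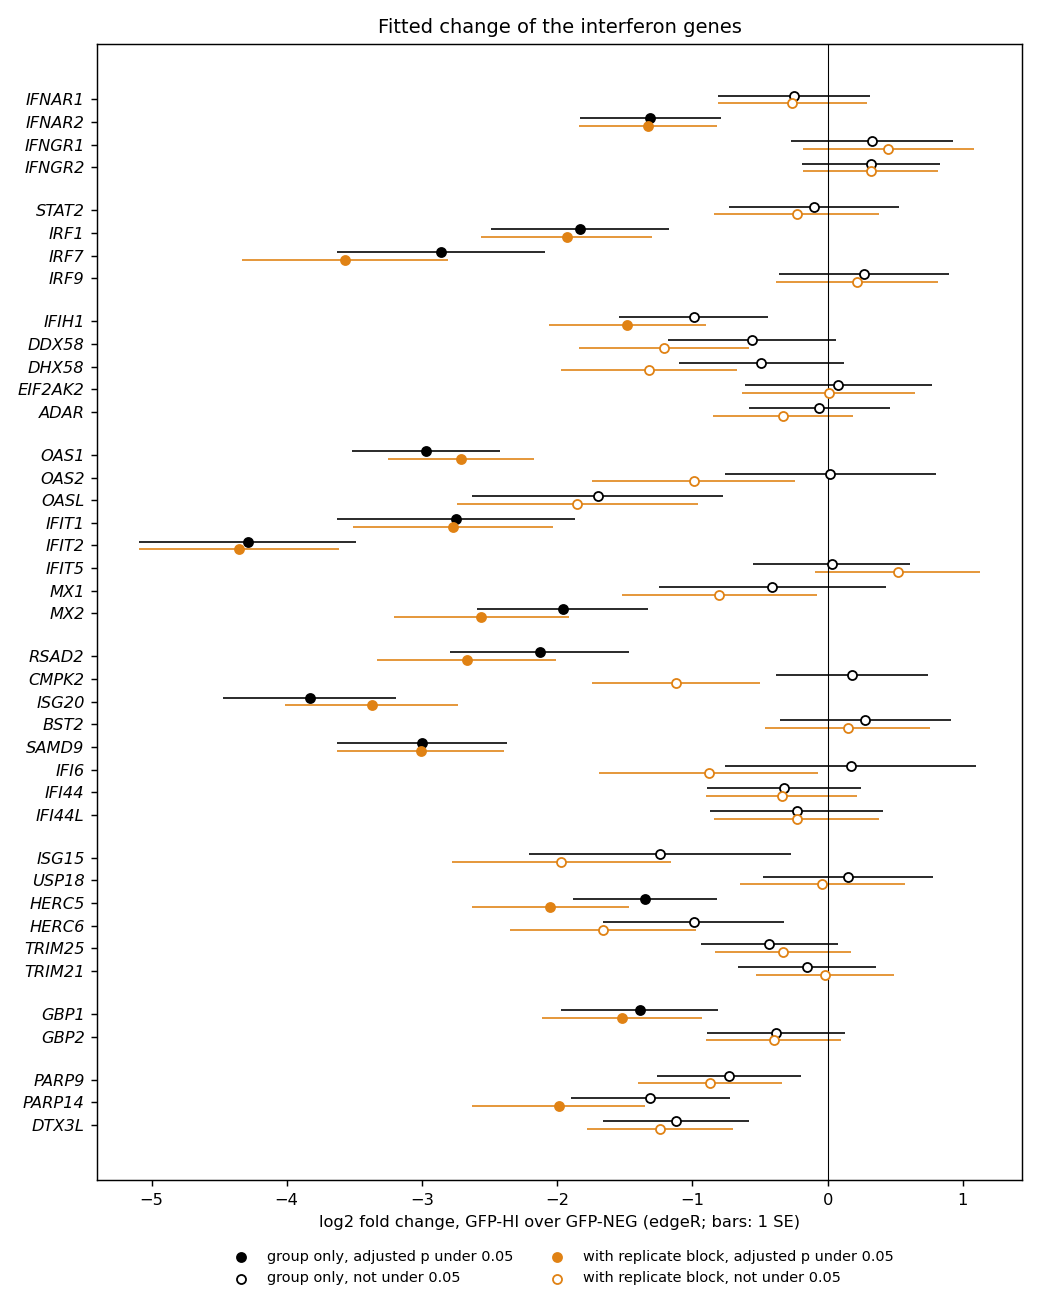
Fitted log2 fold change of GFP-HI over GFP-NEG for each interferon gene, with 1 standard error, without (black) and with (orange) the replicate number as a block; filled points have an adjusted p-value under 0.05. Filled points lie left of 0 for 12 genes without and 14 genes with the block, and no filled point lies right of 0.

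The sum of leukocyte markers, like the called genes, was lower in GFP-HI in both animals. Between replicates the order differed. All called genes were higher in replicate 1 in both fractions, and the leukocyte sum was lower in replicate 1 in both. For GBP1 the order in GFP-NEG rested on 186 against 183 CPM. Of the 16 single leukocyte markers, 10 had the order of the sum, 5 differed between fractions, and CD14 was higher in replicate 1 in both. PTPRC, the pan-leukocyte antigen CD45, was at 45.9 and 121 CPM in GFP-HI and 687 and 1214 CPM in GFP-NEG (log2 fold change -3.51, SE 0.81, adjusted p 1.6e-04). The part of leukocyte and endothelial content in the lower interferon genes was not tested. The 13 genes less than 2-fold apart within both replicates were IFNAR1, IFNGR2, STAT2, IRF9, EIF2AK2, ADAR, BST2, IFI44, IFI44L, USP18, TRIM25, TRIM21 and GBP2. The share of all tested genes within that range was not counted.

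A further 78 genes of the interferon pathway were listed, of which 64 had a row and 61 were tested. Of these, 20 were lower in GFP-HI (32.8%, against 27.6% of all tested genes) and none was higher (against 8.35%), though SOCS1, a feedback inhibitor of JAK kinases, was higher at an unadjusted p under 0.05 in edgeR (log2 fold change 1.24, SE 0.62, adjusted p 0.11). DESeq2 without the block called 19 lower, against 24.9% of its genes, and none higher, against 5.60%. The 4 called genes of at least 5 CPM with the largest changes included the lymphoid factor IRF4 (-4.44) and the myeloid factor IRF5 (-3.95). The others were the phosphatase PTPN6 (-3.92) and the kinase IKBKE (-3.45).

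Of the core kinases, JAK2 was lower in GFP-HI and JAK1 and TYK2 did not pass the test. JAK1 was at 336 and 282 CPM against 262 and 327 CPM, and TYK2 at 152 and 114 CPM against 226 and 235 CPM (adjusted p 0.95 and 0.33). JAK2, which serves the interferon gamma receptor, was lower, at 37.4 and 27.2 CPM against 115 and 54.0 CPM (log2 fold change -1.38, SE 0.53, adjusted p 0.026). The JAK2 call was lost under DESeq2 with the block (0.058), with no filter (0.051) and with any 1 library left out. At least 4-fold higher in replicate 1 in both fractions were 5 of these 61 genes, against 0.366% of all tested genes: LGALS3BP, DDX60, EPSTI1, ZBP1 and UBE2L6.

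Transcripts of the interferons themselves were few, apart from IFN-OMEGA-6. Of 22 interferon genes recognised by symbol, IFN-ALPHA-17 had no count in any library and IFNB1, which encodes interferon beta, had 4 counts in GFP-HI replicate 1 and 0 elsewhere. For IFNG, which encodes interferon gamma, GFP-HI held 8 and 21 counts and GFP-NEG 26 and 51 (log2 fold change -2.77, SE 1.17, adjusted p 0.050), and with the block it was called lower (adjusted p 0.038). The type I gene with the most counts was IFN-OMEGA-6, with 689 and 882 counts in the GFP-HI libraries against 107 and 101 in the far shallower GFP-NEG libraries (log2 fold change 1.44, SE 0.55, adjusted p 0.027). That call was lost with library size as the only scaling (0.16) and under DESeq2 with the block (0.10). Summed over the 21 type I genes, GFP-HI held 1024 and 1385 counts and GFP-NEG 183 and 264, and in neither fraction did replicate 1 have the larger sum. Pig type I interferon genes are near-identical copies, and how reads were split among them is uncertain.

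Several of the genes are neighbours in RefSeq's annotation of the Sscrofa11.1 assembly, which may not be the one behind the counts. OAS1 lies beside OAS2, MX1 beside MX2, RSAD2 beside CMPK2, HERC5 beside HERC6, and IFNAR1 beside IFNGR2. In each of the first 4 pairs 1 gene was called lower by edgeR and the other was not, which for HERC6 turned under DESeq2 with the block. In that annotation 11 of the analysed genes overlap another protein-coding gene, among them IFIT1 and IFIT2 with LIPA, PARP9 with DTX3L, and IRF1 with SLC22A5. Whether the counting used strand is not given in the sources used here, so values of overlapping genes are uncertain. LIPA had a log2 fold change of -0.09 (SE 0.56, adjusted p 0.92), against -2.75 for IFIT1 and -4.29 for IFIT2.

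The authors' deposited table lists all 40 genes and calls 7 of them lower in GFP-positive cells and none higher, where 11.2% of its 16250 genes are lower and 8.20% higher. The 7 were IRF1, IRF7, IFIT1, IFIT2, ISG20, SAMD9 and GBP1, and all were also called here, from the same counts. DESeq2 without the block called the same 7 here, where 24.9% of 24178 genes were lower and 5.60% higher. How the 16250 genes were chosen is not given in the sources used here, so 11.2% and 24.9% are not like backgrounds. The authors' deposited table gives IFIT2 an adjusted p of 1.5e-07 at a log2 fold change of -4.30.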

How the data were processed

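The authors deposited a table of unnormalized counts for every library. The submitters' processing notes name featureCounts, Subread 1.5.2 and DESeq2 1.37.6. Alignment and strand settings, filters and genome build are not given in the sources used here. The deposited comparison table gives, per the file headers, a log2 fold change and an adjusted p-value for 16250 genes. Its count columns equal the library tables, and 4 further columns of values per sample were not used. Of the Ensembl identifiers, 834 were renamed by symbol.

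Counts were tested with edgeR 4.0.16 in R 4.3.3 (glmQLFit and glmQLFTest, TMM, filterByExpr, group as the only term) on all 4 libraries. The filter kept 19682 genes, p-values were adjusted by Benjamini-Hochberg over all of them, and the threshold was 0.05. Standard errors are the log2 fold change divided by the square root of F. CPM are TMM-scaled, and differences between single libraries use log2(CPM + 0.5). Alternatives were RLE, upper-quartile and library-size scaling, 2 other filters on low counts, DESeq2 1.42.0 with and without the block, the replicate block in edgeR, GFP-HI thinned to 6668952 counts, and each library left out. The DESeq2 fit with the block and the test of the replicate term were chosen after the data were seen. The scripts were tested on simulated data.

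The replicate numbers were taken to pair libraries because the headings of the authors' table number the pigs. Across 19682 genes the replicate deviations of GFP-HI and GFP-NEG correlated with an r of 0.179. The Y-linked gene EIF1AY followed the same numbers, with 635 and 213 counts in the replicate 1 libraries and 0 in both replicate 2 libraries. The labels say nothing further on how the libraries were kept separate, so p-values measure the spread between these libraries.

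The genes and lists were chosen with earlier results of these data known. Every one of the 42 genes is accounted for, and CPM in each library are given for those past the threshold, the receptors and the transcription factors, and for others the results turn on. From the pathway list, JAK1, JAK2 and TYK2 and up to 4 called genes in each direction of at least 5 CPM are named, and others were chosen after their values were seen. Promoter and protein sequences were not used here. A gene that the naming rule covers is not reported here.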

Additional observations from a re-analysis of the deposited data

How the results depend on the processing

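Under DESeq2 without the block 7 interferon genes were lower, against 12. With no filter, or one at 1 CPM, 9 were, where 6136 and 4568 of all tested genes were lower. These filters change the number of genes tested, and the shares were not counted. None of the 40 genes of the set was higher in any fit with all 4 libraries. Of them, IRF1, IRF7, IFIT1, IFIT2, ISG20 and SAMD9 were lower in all of those fits. With 1 library left out, 0 to 5 interferon genes were higher and 1 to 20 lower (median -2.61 to 0.31), and 0 to 3 other pathway genes were higher and 5 to 15 lower. Of all tested genes, 1083 were higher under upper-quartile scaling and 888 under library size alone, against 1643. After thinning 3564 were lower, and 3263 under DESeq2 with the replicate block, against 5433. With 1 library left out, 216 to 1635 were higher and 1575 to 4999 lower. Over all tested genes the median came to -0.68 under library size, -0.58 under upper-quartile scaling, -1.21 with no filter, -1.30 under DESeq2, -1.31 under DESeq2 with the block, -0.10 after thinning, and -0.59 to 0.03 with 1 library left out. The cause of these shifts was not tested.

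The replicate block in edgeR called 14 interferon genes lower, adding IFIH1 and PARP14, and changed no other call among them. Under it the log2 fold changes of OAS2 (-0.99), CMPK2 (-1.12), IFI6 (-0.88) and USP18 (-0.04) were negative, not positive as without it. DESeq2 with the block gave -0.99, -1.29, -0.89 and -0.05. None of these passed the threshold. In the replicate term of that fit, 35 of all tested genes were higher in replicate 2 under library size alone, against 15. Signs also turned, without a call, under library size for IFNGR1 (-0.04), IFNGR2 (-0.10), IRF9 (-0.03), EIF2AK2 (-0.18), OAS2 (-0.22), IFIT5 (-0.24), CMPK2 (-0.05), IFI6 (-0.02), USP18 (-0.08) and JAK1 (-0.37). Upper-quartile scaling turned EIF2AK2 (-0.14), OAS2 (-0.19), IFIT5 (-0.18), CMPK2 (-0.03), IFI6 (-0.01), USP18 (-0.05) and JAK1 (-0.27). Thinning turned EIF2AK2 (-0.02), OAS2 (-0.12), IFIT5 (-0.10) and JAK1 (-0.05), and RLE scaling and the filter at 1 CPM each turned OAS2 (-0.01).

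With 1 library left out, ranges that crossed 0 were -1.55 to 0.81 for ADAR, -2.71 to 3.11 for BST2, -4.90 to 2.10 for CMPK2, -3.79 to 1.35 for DDX58, -3.89 to 1.20 for DHX58, -1.45 to 1.58 for EIF2AK2, -2.02 to 1.48 for IFI44, -1.44 to 1.13 for IFI44L, -5.23 to 3.52 for IFI6, -0.83 to 2.12 for IFIT5, -0.24 to 1.21 for IFNGR1 and -0.72 to 1.26 for IRF9. They were -4.49 to 0.52 for ISG15, -0.03 to 0.29 for JAK1, -3.48 to 1.93 for MX1, -3.82 to 1.79 for OAS2, -1.81 to 0.08 for PARP9, -5.57 to 0.25 for RSAD2, -0.90 to 0.53 for STAT2, -0.74 to 0.78 for TRIM21, -1.61 to 1.16 for TRIM25 and -2.16 to 2.17 for USP18. OAS2, CMPK2 and IFI6, positive in the main fit, were called lower without GFP-HI replicate 1. Others lower in that fit included DDX58 (-3.79), DHX58 (-3.89), MX1 (-3.48) and RSAD2 (-5.57), which were negative in the main fit too. IFIT5, CMPK2, BST2, IFI6 and USP18 were called higher without GFP-NEG replicate 1.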

Other observations

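In all, 72 genes were at least 4-fold higher in replicate 1 in both fractions. Of these, 14 were the interferon genes given above, 5 were on the list of further pathway genes, 34 had other symbols and 19 had an identifier only. The interferon-induced gene ISG12(A) was at 2367 and 90.6 CPM in GFP-HI and at 1565 and 17.2 CPM in GFP-NEG. LGALS3BP, which encodes a secreted glycoprotein, was at 3942 and 115 CPM in GFP-HI and at 1785 and 142 CPM in GFP-NEG. DDX60, a helicase linked to RIG-I signalling, was at 129.9 and 3.72 CPM in GFP-HI and 115 and 13.6 CPM in GFP-NEG. The alveolar type 1 cell marker AGER was also among the 72, at 103 and 13.0 CPM in GFP-HI and 113 and 13.9 CPM in GFP-NEG, so the replicates differed in genes outside the interferon pathway too. These genes were chosen after their values were seen, and the folds within a single fraction were not tested.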
